A study of Mus musculus with 13 samples.

Results

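Forestomach masses from p120 flox/flox mice were compared with forestomach epithelium from controls by Affymetrix gene array. Of the 13 arrays of the series, 6 entered this comparison, 3 in each group, chosen by their labelled tissue and genotype. The controls carried L2-Cre and were wild type for p120-catenin (Cre/p120 +/+), and came from animals 214, 216 and 217. The masses came from animals 412, 426 and 510, which carried L2-Cre and floxed alleles of Ctnnd1, the gene of p120-catenin (Cre/p120 flox/flox). All animals were of a mixed C57Bl/6 and 129 background, and all carried Cre. Epithelium was freed with dispase, a protease that loosens epithelium from the tissue beneath it, and RNA was extracted with Trizol. Since each flox/flox forestomach array is of a mass, genotype and the formation of a mass cannot be told apart in this comparison. The sources used here give neither the animals' ages, nor the reach of L2-Cre across cells, nor the histology of the masses. The other 7 arrays are esophagus epithelium: 3 from the same control animals and 4 from other flox/flox animals.

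The mouse forestomach is lined by a stratified squamous epithelium whose cells divide at the base, fill with keratin as they move up and build a lipid and protein barrier at the surface. Such epithelium also burns fatty acids in mitochondria and peroxisomes and carries many enzymes that oxidise or conjugate alcohols, aldehydes, retinoids and food-borne chemicals. Secretion runs through the endoplasmic reticulum (ER), where chaperones fold proteins, and the Golgi, where sugars are added. p120-catenin binds the cytoplasmic tail of cadherins and keeps them at cell junctions.

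Values are log2 intensities. For each gene they are given in the order 214, 216 and 217 for the controls and 412, 426 and 510 for the masses. A change is the difference of the group means on the log2 scale, with the standard error (SE) of the limma fit over the 6 arrays and the p adjusted by the Benjamini-Hochberg method over 15536 genes. A gene was called, and is said to have risen or fallen, at an adjusted p under 0.05. Intensities of different genes are not on a common scale and are not compared.

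The 6 arrays had median intensities of 69.1 to 72.4. Controls correlated with each other at 0.986 to 0.992 across genes, and masses with each other at 0.918 to 0.940. The median SD of a gene was 0.114 over the controls and 0.248 over the masses, so a mass differed more from the other masses than a control from the other controls. Ctnnd1 measured 10.40, 10.14 and 10.23 in the controls and 9.66, 9.91 and 9.51 in the masses, a difference of -0.56 (SE 0.15, adjusted p = 0.0916). Every mass lay below every control, and the difference passed the test in the fit of all 13 arrays (adjusted p = 0.0145) but not in that of the 6. The sources used here do not say whether the probes cover the floxed exons. Xist was high in control 214 and in masses 412 and 426 and low on the other 3 arrays, so sex was mixed in both groups.

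The summed intensity of the 9 squamous markers was 53942 to 55023 in the controls and 50092 to 55276 in the masses. This sum is carried by bright keratins and Sprr3. Among them Krt4 (13.63, 13.65 and 13.62 in the controls and 12.73, 13.33 and 13.16 in the masses), Krt13 (13.82, 13.77 and 13.80 in the controls and 13.38, 13.68 and 13.69 in the masses) and Sprr3 (13.81, 13.83 and 13.82 in the controls and 13.57, 13.58 and 13.73 in the masses) were lower in every mass than in every control. Krt5 (12.35, 12.32 and 12.50 in the controls and 13.01, 12.51 and 12.59 in the masses) was higher in every mass, by little in masses 426 and 510. Krt14 measured 12.39, 12.41 and 12.48 in the controls and 13.33, 12.43 and 13.51 in the masses. Krt15 measured 9.96, 9.23 and 8.75 in the controls and 8.06, 10.90 and 7.84 in the masses. Trp63 measured 10.38, 10.24 and 10.36 in the controls and 10.28, 9.86 and 10.10 in the masses. For each of Krt14, Krt15 and Trp63 the groups overlapped. Ivl (8.74, 7.21 and 8.40 in the controls and 8.68, 7.16 and 6.40 in the masses) and Crnn (5.40, 5.71 and 6.21 in the controls and 10.64, 6.46 and 6.07 in the masses) were dimmer, and their groups overlapped. Mass 426 also held signal of other tissues. The 11 glandular stomach markers summed to 540, 597 and 586 in the controls and to 562, 45550 and 702 in the masses, and the 4 markers of simple epithelium to 320, 385 and 329 in the controls and to 615, 14926 and 432 in the masses. Both sets were high in mass 426 and within a narrow range elsewhere, apart from a smaller excess of simple epithelium markers in mass 412. The 6 smooth muscle and pericyte markers summed to 2239, 401 and 379 in the controls and to 3098, 14576 and 843 in the masses, so control 214 lay above mass 510. The 7 fibroblast markers summed to 1674, 1017 and 809 in the controls and to 4326, 5657 and 1279 in the masses. Endothelial markers (5 genes) summed to 376, 226 and 214 in the controls and to 1254, 1011 and 467 in the masses. Skeletal muscle markers (4 genes, Myh4 not above the filter) stayed between 251 and 350 on all arrays. List counts below are therefore also given without each mass, in the order 412, 426 and 510. In whole samples, a lower level of a gene in each cell and fewer cells that express it cannot be told apart.

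**Figure D1:**
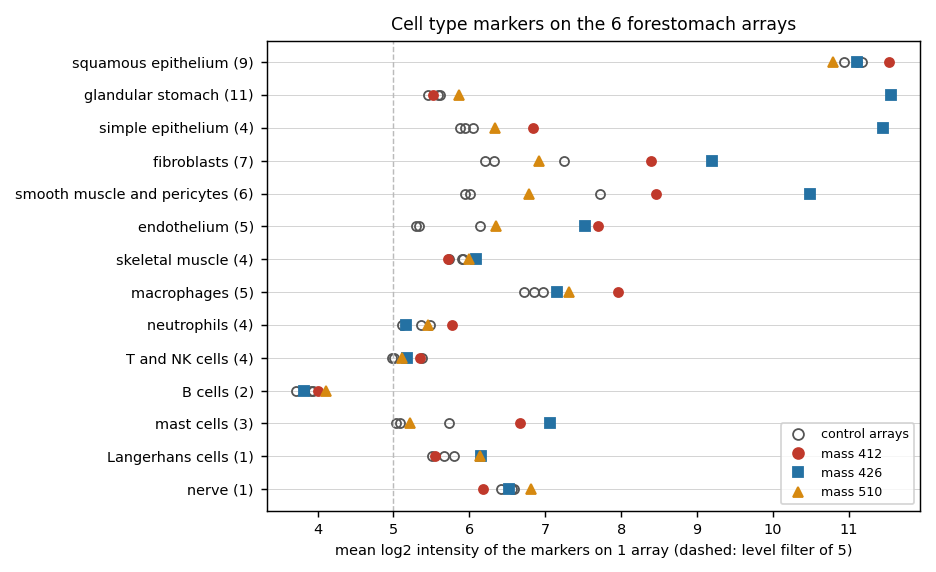
Mean log2 intensity of 14 cell type marker sets (rows) on the 6 forestomach arrays, with 1 point per array and the filter level of 5 as a dashed line. Glandular stomach, simple epithelium and smooth muscle markers stand highest in mass 426, and the mean of the squamous markers overlaps between controls and masses.

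Of 15536 genes tested, 458 (2.95%) differed between masses and controls. Among them 119 (0.766%) rose and 339 (2.18%) fell, and 93 of the rises and 173 of the falls were at least 2-fold. The groups did not overlap for any called gene; over all genes tested, every mass lay above every control for 1582 (10.2%) and below for 2769 (17.8%). The number called depended on single arrays. It was 354 without mass 412, 786 without mass 426 and 1447 without mass 510; falls then made up 1.76%, 3.46% and 5.88% of the genes tested and rises 0.532%, 1.64% and 3.58%. It was 4 without control 214 (Adh6a, Adh6b, Defb4 and Sptlc3), 1 without control 216 (Adh6a) and 8 without control 217, where Chil4, Krt16, Dsc2, Rdh1 and 2610528A11Rik joined Defb4, Adh6a and Sptlc3. The list counts below therefore rest on all 3 controls. Of the 96 named genes called, 32 were not called without mass 412, 7 without mass 426 and 2 without mass 510. In the fit of all 13 arrays, which shares 1 estimate of the spread with the esophagus, 1700 genes were called (10.7%), 366 higher (2.31%) and 1334 lower (8.4%), and 418 of the 458 were among them. With the animal as a random block in that fit, since the control animals gave both tissues, 1622 genes were called; among the genes named below, Sec61a2 and Col4a1 were then lost beside those lost in the 13-array fit (adjusted p = 0.0604 and 0.0602). With sex as a covariate 103 genes were called, 93 of them among the 458. Rises made up 26% of the calls, and 37.3% after quantile normalization.

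Metabolic lists held mostly falls: of 553 metabolic genes tested, 7 rose and 44 fell. In organelle lists 5 of 459 rose and 8 fell, and in secretion lists 10 of 234 rose and 9 fell. Stromal lists turned the other way, with 9 rises and 2 falls among 201 genes. Of 72 genes in immune cell lists, 4 rose and 1 fell, and of 125 epithelial genes 1 rose and 6 fell. Without mass 412, 426 and 510, metabolic lists had 6, 21 and 27 rises and 42, 92 and 90 falls, organelle lists 4, 13 and 21 rises and 5, 14 and 22 falls, secretion lists 8, 23 and 33 rises and 10, 13 and 24 falls, stromal lists 0, 8 and 59 rises and 2, 2 and 2 falls, immune lists 1, 5 and 14 rises and 1, 1 and 1 falls and epithelial lists 1, 9 and 2 rises and 3, 5 and 18 falls. The median difference over all genes tested was 0.00. The 60 lists held 1885 genes, of which 1770 were on the array and 1631 passed the level filter; 6 of the 1631 passed it through 1 group only, with the other group's 3 arrays at or below a log2 intensity of 5.

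**Figure D2:**
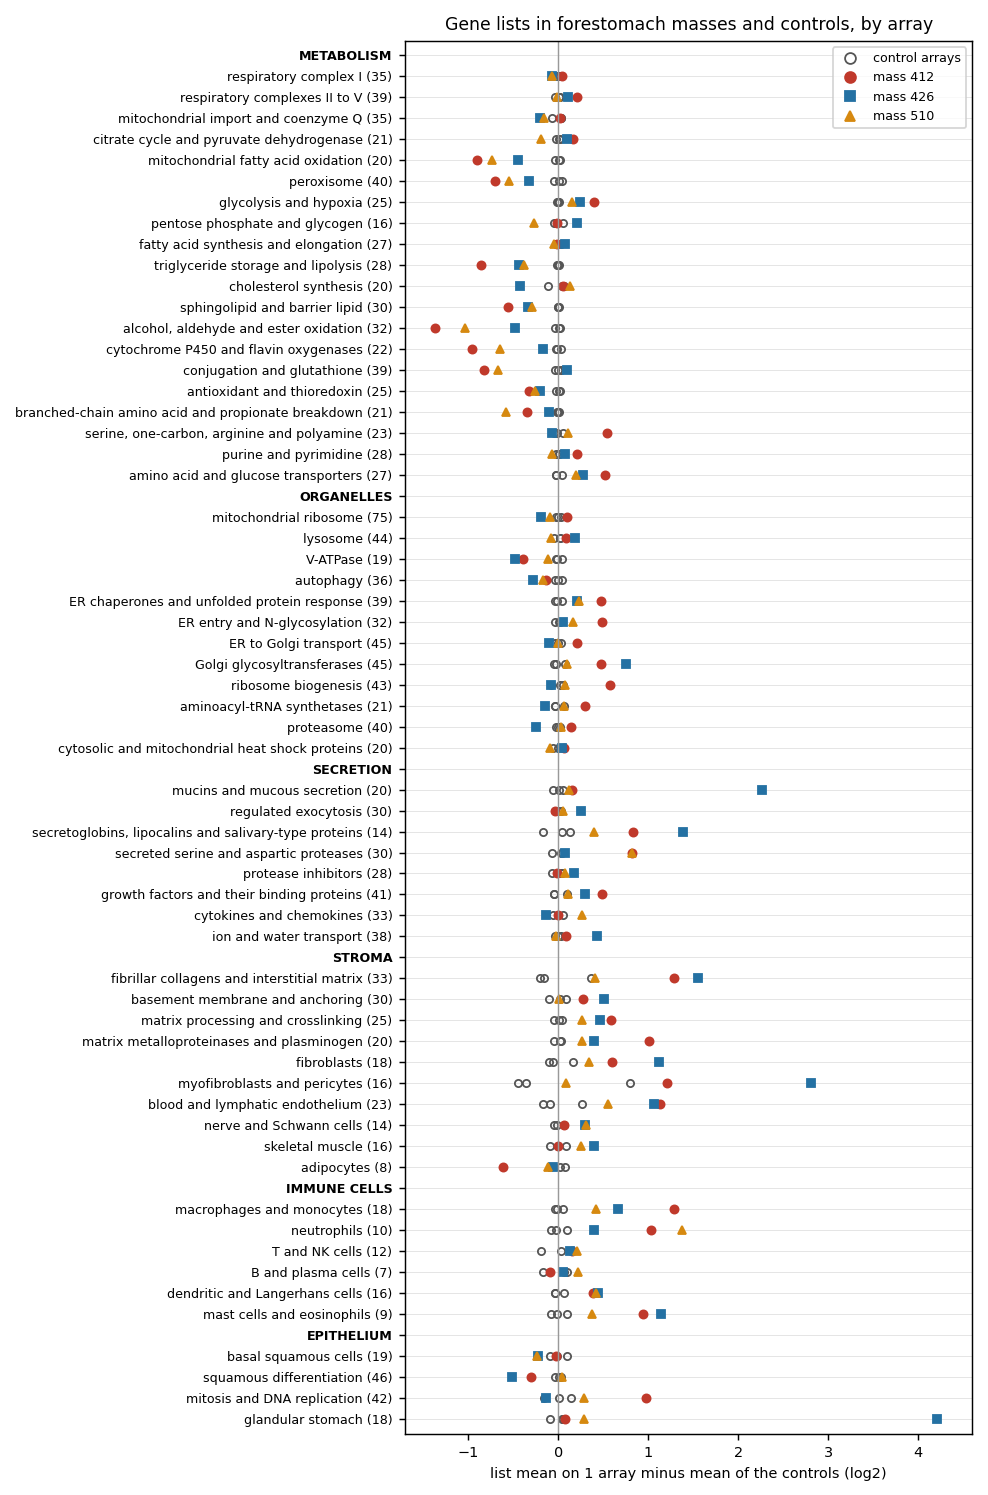
Mean log2 intensity of each of 60 gene lists on each forestomach array minus the mean of the 3 controls, with control and mass arrays as separate symbols. Fatty acid oxidation, peroxisome and alcohol and aldehyde oxidation lie below the controls in all 3 masses, endothelial and macrophage lists lie above, and glandular stomach, mucin and myofibroblast lists are far higher in mass 426 than in the other masses.

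RNA of part of the genes of mitochondrial fatty acid oxidation was lower in the masses. Of 20 genes tested, 0 rose and 5 fell, and the median difference was -0.64. For 15 genes every mass lay below every control, against 17.8% of all genes tested. Decr1, the reductase that lets unsaturated fatty acids enter the cycle, measured 9.32, 9.58 and 9.60 in the controls and 6.40, 8.02 and 6.66 in the masses and fell by 2.48 (SE 0.39, adjusted p = 0.0308), a 5.56-fold fall. Mass 412 was lowest, and even the highest mass lay more than 1 log2 unit below the lowest control. Slc25a20, which carries acylcarnitines into mitochondria, measured 10.23, 10.15 and 10.22 in the controls and 8.42, 9.13 and 9.0 in the masses and fell by 1.35 (SE 0.20, adjusted p = 0.0282). Every mass lay about 1 log2 unit or more below the lowest control. Hadhb, a subunit of the trifunctional protein that completes the cycle for long chains, measured 10.62, 10.72 and 10.76 in the controls and 9.68, 9.97 and 9.94 in the masses and fell by 0.83 (SE 0.13, adjusted p = 0.0309). Its partner subunit Hadha and the short-chain dehydrogenase Hadh were called too, with differences of -0.82 and -0.98. The count of falls was 5, 11 and 10 without mass 412, 426 and 510, and 12 in the 13-array fit. After quantile normalization Hadhb missed the threshold at an adjusted p of 0.0502.

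Peroxisomal genes had falls and no rises. None of 40 rose, 7 fell and the median was -0.55. For 25 genes every mass lay below every control (17.8% over all genes tested), against 1 the other way (10.2%). Pex3, needed to build the peroxisomal membrane, measured 9.29, 9.37 and 9.56 in the controls and 7.98, 8.27 and 8.37 in the masses and fell by 1.20 (SE 0.15, adjusted p = 0.0238). Pex13, part of the dock through which enzymes are imported, measured 9.27, 8.93 and 9.01 in the controls and 7.55, 7.95 and 7.996 in the masses and fell by 1.24 (SE 0.17, adjusted p = 0.0255). Pex5, the import receptor that meets that dock, had a difference of -0.62. RNA of the membrane factor Pex3 and of Pex13, 1 part of the import dock, was thus lower in all masses. Acot8, a thioesterase of the peroxisomal matrix, measured 8.17, 8.07 and 8.04 in the controls and 7.12, 7.32 and 7.30 in the masses and fell by 0.85 (SE 0.12, adjusted p = 0.0282). Acot4, Nudt7, a coenzyme A diphosphatase, and the isomerase Eci2 were called with differences of -1.54, -1.13 and -0.60. With mass 412, 426 or 510 left out, the number of falls was 8, 13 and 12, and the 13-array fit called 22. Of the squamous markers, Krt4, Krt13 and Sprr3 were lower in every mass and Krt5 was higher in every mass. For Krt14, Krt15, Trp63, Ivl and Crnn the groups overlapped. The part of cell type shares in the peroxisomal falls was not tested.

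In the respiratory chain no gene of complex I (35 tested) or of complexes II to V (39 tested) was called, and their medians were -0.07 and 0.11. Over all genes tested 2.95% were called, a share at which lists of this size hold few calls. In complex I 4 genes were higher and 6 lower in every mass than in every control, and in complexes II to V 10 and 3. Over all genes tested these shares were 10.2% and 17.8%. Ndufa1, a small subunit of complex I, measured 8.95, 8.68 and 8.90 in the controls and 9.40, 9.04 and 8.997 in the masses. Sdha, the catalytic subunit of complex II, measured 10.29, 10.19 and 10.42 in the controls and 10.21, 10.33 and 10.03 in the masses, a difference of -0.11 (SE 0.14, adjusted p = 0.740). The citrate cycle (21 tested) and the mitochondrial ribosome (75 tested) had no calls either. Cs, citrate synthase, measured 10.84, 10.79 and 10.76 in the controls and 10.83, 10.76 and 10.58 in the masses, and Mrpl1, a protein of the mitochondrial ribosome, 8.02, 8.37 and 8.50 in the controls and 7.92, 7.52 and 8.16 in the masses. Without mass 510, complexes II to V had 2 rises, the citrate cycle 1 and the mitochondrial ribosome 1. Among genes of coenzyme Q synthesis 2 fell in RNA. Pdss2, which makes the side chain, measured 7.44, 7.35 and 7.34 in the controls and 6.16, 6.71 and 6.09 in the masses. It fell by 1.06 (SE 0.18, adjusted p = 0.0363). Coq3, a methyltransferase, fell by 0.78 (SE 0.15, adjusted p = 0.0461). In the list of mitochondrial import and coenzyme Q these were the only calls among 35, and the median was -0.08. Coq3 was lost after quantile normalization, and the list had 0, 1 and 1 rises and 0, 2 and 2 falls without mass 412, 426 and 510.

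Glycolysis and hypoxia genes had a median of 0.31, with 2 rises and 0 falls among 25. Pgk1, which makes ATP in the later steps of glycolysis, measured 10.36, 10.26 and 10.56 in the controls and 11.42, 11.11 and 11.19 in the masses and rose by 0.85 (SE 0.14, adjusted p = 0.0363). Ndrg1, a gene induced when oxygen is low, measured 8.09, 7.81 and 7.90 in the controls and 9.81, 9.70 and 9.002 in the masses and rose by 1.57 (SE 0.23, adjusted p = 0.0282). The masses lay close together for Pgk1, all above the controls, whereas Ndrg1 spread more. In fits without mass 412, 426 and 510, the list had 1, 4 and 4 rises, and the 13-array fit called 8 higher and 1 lower. Pentose phosphate and glycogen genes (16 tested, median 0.01) had no calls, and 0, 0 and 1 rises and 0, 1 and 1 falls without each mass; Pgls, of the pentose phosphate path, measured 8.02, 7.86 and 7.95 in the controls and 7.90, 7.91 and 8.23 in the masses. The promoter of Pgk1 is shown because it holds the core letters recognised by hypoxia-inducible factors. It is the stretch before the start site in RefSeq, mouse build GRCm38.p6, chrX:106186850-106187099 on the plus strand, with each ACGTG, searched on both strands, in capitals.
Pgk1: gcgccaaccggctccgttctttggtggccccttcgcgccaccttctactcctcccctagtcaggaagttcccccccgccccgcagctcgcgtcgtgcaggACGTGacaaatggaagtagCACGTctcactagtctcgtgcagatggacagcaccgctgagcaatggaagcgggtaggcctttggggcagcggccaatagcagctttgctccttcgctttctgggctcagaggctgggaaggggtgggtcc
ACGTG was found in 20 of 40 promoters of the list (50.0%) and in 5444 of all 32851 promoters of 250 bases (16.6%). Ndrg1, the other called gene of the list, was not among the genes with a match. A match of letters is a description and no evidence of binding in these samples.

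Genes of lipid synthesis went both ways. In the list of fatty acid synthesis and elongation (27 tested) 2 rose and 4 fell. Elovl7, an elongase of long fatty acids, measured 9.59, 9.52 and 9.50 in the controls and 10.63, 10.74 and 10.92 in the masses and rose by 1.23 (SE 0.13, adjusted p = 0.0151). Fads2, a desaturase of polyunsaturated fatty acids, measured 5.84, 5.96 and 6.14 in the controls and 9.08, 8.04 and 7.36 in the masses and rose by 2.18 (SE 0.39, adjusted p = 0.0387). Both were higher in every mass. Elovl6, which extends the products of fatty acid synthase, measured 12.11, 11.90 and 11.93 in the controls and 9.63, 10.49 and 10.61 in the masses and fell by 1.74 (SE 0.26, adjusted p = 0.0287), and Acsbg1, an acyl-CoA synthetase, fell by 1.01 (SE 0.13, adjusted p = 0.0238). Hsd17b12 and Hacd2, which complete each round of elongation, had differences of -0.67 and -0.64. The list had 2, 3 and 3 rises and 2, 3 and 7 falls without mass 412, 426 and 510.

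In triglyceride storage and lipolysis (28 tested, median -0.44) Gpam, the acyltransferase that opens glycerolipid synthesis, measured 10.19, 10.04 and 10.02 in the controls and 7.49, 8.66 and 8.49 in the masses and fell by 1.87 (SE 0.29, adjusted p = 0.0305). Agpat2, which catalyses the next acylation, measured 8.07, 8.10 and 8.24 in the controls and 9.06, 8.86 and 8.78 in the masses and rose by 0.76 (SE 0.13, adjusted p = 0.0370). RNA of Gpam was thus lower and RNA of Agpat2 higher in all masses. Fabp4, a fatty acid carrier of adipocytes and capillaries, measured 9.76, 9.80 and 9.89 in the controls and 7.84, 7.91 and 8.62 in the masses and fell by 1.70 (SE 0.22, adjusted p = 0.0238); the call was lost in the 13-array fit (adjusted p = 0.0750). The triglyceride list had 0, 1 and 1 rises and 2, 4 and 9 falls without mass 412, 426 and 510. Among sphingolipid and barrier lipid genes (30 tested) the median was -0.56. In every mass 19 genes were lower than in every control (17.8% over all genes tested) and 5 higher (10.2%). Sptlc3, a subunit of the enzyme that opens sphingolipid synthesis, measured 5.99, 5.70 and 5.97 in the controls and 7.85, 7.91 and 7.77 in the masses and rose by 1.96 (SE 0.13, adjusted p = 0.00844). Cers5, a ceramide synthase, measured 8.89, 8.78 and 8.67 in the controls and 7.91, 8.15 and 8.09 in the masses and fell by 0.72 (SE 0.13, adjusted p = 0.0387). This list had 1, 1 and 4 rises and 2, 4 and 12 falls without mass 412, 426 and 510, and 3 rises and 12 falls in the 13-array fit. Cholesterol synthesis (20 tested, median -0.02) had 1 call: Insig1, which holds back sterol synthesis when sterols are plentiful, fell by 0.60 (SE 0.11, adjusted p = 0.0415). Insig1 was not called without mass 412 (adjusted p = 0.0610) or without mass 426 (adjusted p = 0.0518). The list had 0, 1 and 0 rises and 0, 0 and 4 falls without each mass.

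Enzymes that handle alcohols, aldehydes, esters and foreign chemicals had falls and no rises in 3 lists. Of 32 alcohol, aldehyde and ester enzymes 8 fell and 0 rose, with a median of -0.76. Adh6a, an alcohol dehydrogenase, measured 8.79, 9.41 and 9.29 in the controls and 5.53, 5.84 and 5.65 in the masses and fell by 3.49 (SE 0.19, adjusted p = 0.00385). It was the only gene called whichever control was left out. Aldh1a7, an aldehyde dehydrogenase, measured 11.08, 10.96 and 10.85 in the controls and 8.29, 8.98 and 8.99 in the masses and fell by 2.21 (SE 0.21, adjusted p = 0.0111); it was not called in the 13-array fit (adjusted p = 0.0788). Ephx1, the microsomal epoxide hydrolase, measured 10.53, 10.64 and 10.46 in the controls and 8.57, 9.33 and 9.07 in the masses and fell by 1.55 (SE 0.20, adjusted p = 0.0238). Mass 412 was the lowest array for all 3, and no mass reached the lowest control. Adh7, which oxidises retinol and ethanol, Rdh12, a retinol dehydrogenase, Aldh9a1 and Ces2e, a carboxylesterase, had differences of -1.31, -0.80, -0.83 and -1.04. The list had 8, 14 and 10 falls without mass 412, 426 and 510, and 13 in the 13-array fit.

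Among cytochrome P450 and flavin oxygenases 4 of 22 fell and 0 rose (median -0.70). Cyp4b1 measured 7.66, 7.75 and 7.72 in the controls and 6.19, 6.51 and 6.51 in the masses and fell by 1.31 (SE 0.14, adjusted p = 0.0151). Cyp2b19, an arachidonic acid epoxygenase of keratinocytes, measured 7.401, 7.88 and 7.70 in the controls and 4.95, 5.51 and 6.11 in the masses and fell by 2.13 (SE 0.29, adjusted p = 0.0255), and Cyp3a13 fell by 1.73 (SE 0.22, adjusted p = 0.0235). Cyp1b1 had a difference of -1.53 and was not called in the 13-array fit (adjusted p = 0.0543). Conjugating enzymes had 5 falls and 0 rises among 39 (median -0.40). All 5 were glutathione transferases, which join glutathione to reactive compounds. Gstm1 measured 12.06, 12.09 and 12.06 in the controls and 9.63, 10.74 and 10.38 in the masses and fell by 1.82 (SE 0.27, adjusted p = 0.0282). Gstm4 measured 7.64, 7.97 and 7.84 in the controls and 6.32, 6.95 and 6.68 in the masses and Gstp1 12.72, 12.83 and 12.66 in the controls and 11.33, 11.74 and 11.95 in the masses, with differences of -1.17 and -1.06. Gstm3 and Mgst1 had differences of -1.48 and -1.76. Without mass 412, 426 and 510, this list had 0, 0 and 3 rises and 5, 16 and 8 falls, and the oxygenases had 0, 2 and 0 rises and 4, 9 and 4 falls. Probes for the Gstm, Adh6, Aldh1a and Tmprss11 families may read near-identical copies, so single members of these families are uncertain. Of 25 antioxidant genes, only Cbr3, a carbonyl reductase, was called, with a difference of -0.83; the list had 0, 0 and 2 rises and 0, 4 and 5 falls without each mass.

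**Figure D3:**
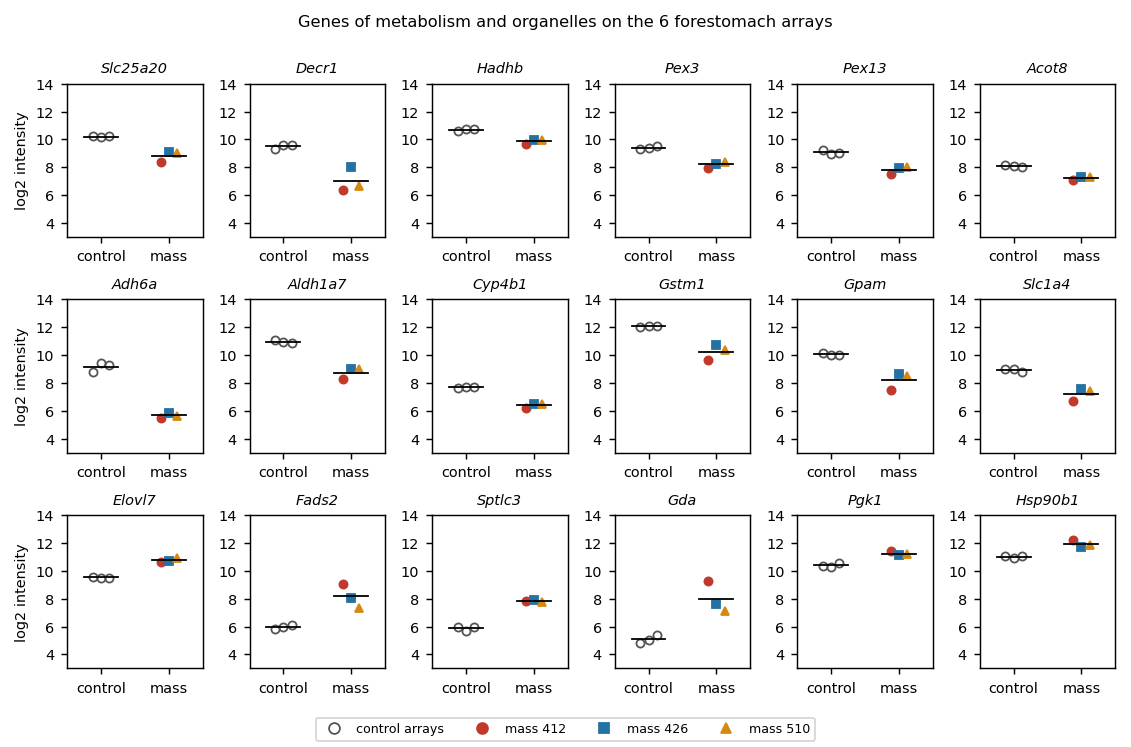
Log2 intensity of 18 metabolic and folding genes on the 6 forestomach arrays, with controls and masses as separate points and a bar at each group mean. Decr1, Adh6a and Gpam are lower in all 3 masses than in all 3 controls, and Gda, Fads2 and Sptlc3 are higher.

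In amino acid and nucleotide metabolism at most 2 genes of a list were called, where 2.95% of all genes tested were. Bckdhb, a subunit of the complex that commits branched-chain amino acids to breakdown, measured 8.85, 8.86 and 8.94 in the controls and 7.24, 7.56 and 7.69 in the masses and fell by 1.39 (SE 0.15, adjusted p = 0.0157), the only call among 21 genes of that list (median -0.35). The list had 0, 0 and 1 rises and 1, 5 and 1 falls without mass 412, 426 and 510, and 4 falls in the 13-array fit. No gene of serine, one-carbon, arginine and polyamine metabolism (23 tested) was called, and the list had 0, 3 and 2 rises and 0, 1 and 1 falls without each mass. Phgdh, which opens serine synthesis, measured 9.12, 8.45 and 9.02 in the controls and 8.44, 8.30 and 8.68 in the masses, and the groups overlapped. In purine and pyrimidine metabolism Gda, which deaminates guanine, measured 4.85, 5.04 and 5.39 in the controls and 9.24, 7.62 and 7.10 in the masses and rose by 2.89 (SE 0.50, adjusted p = 0.0370), a 7.44-fold rise. Ampd2, an AMP deaminase, measured 9.10, 8.93 and 8.96 in the controls and 8.16, 7.88 and 8.18 in the masses and fell by 0.93 (SE 0.14, adjusted p = 0.0283). Purine and pyrimidine genes (28 tested) had 1, 3 and 2 rises and 2, 2 and 1 falls without mass 412, 426 and 510. Amino acid and glucose transporters had a median of 0.30, but both calls among 27 were falls; the list had 1, 2 and 0 rises and 3, 3 and 3 falls without each mass. Slc1a4, a carrier of small neutral amino acids, measured 8.98, 9.04 and 8.80 in the controls and 6.68, 7.55 and 7.42 in the masses and fell by 1.72 (SE 0.23, adjusted p = 0.0255). Slc43a2, a carrier of large neutral amino acids, fell by 0.79 (SE 0.14, adjusted p = 0.0377) and was not called in the 13-array fit (adjusted p = 0.0698).

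Lysosomal genes changed in both directions: 3 rose and 2 fell among 44, with a median of -0.02. Ctsh, a cysteine protease, measured 6.66, 6.95 and 7.29 in the controls and 9.59, 8.54 and 8.95 in the masses and rose by 2.06 (SE 0.28, adjusted p = 0.0255). Ctsc, the protease that activates serine proteases of granules, measured 8.72, 8.37 and 8.79 in the controls and 10.95, 9.99 and 10.17 in the masses and rose by 1.74 (SE 0.26, adjusted p = 0.0292). Manba, a mannosidase that trims glycoproteins, measured 6.35, 6.12 and 6.15 in the controls and 7.71, 7.62 and 7.25 in the masses and rose by 1.32 (SE 0.16, adjusted p = 0.0235). Each was higher in every mass. Ctsl, another cysteine protease, measured 11.05, 11.14 and 11.11 in the controls and 10.30, 9.83 and 10.22 in the masses and fell by 0.99 (SE 0.15, adjusted p = 0.0302), and Ctns, the cystine exporter of lysosomes, had a difference of -1.10. The list had 3, 3 and 6 rises and 1, 5 and 2 falls without mass 412, 426 and 510. The letters GTCACGTG, bound by factors that drive lysosomal genes, were found on either strand in 11 of 47 promoters of the list (23.4%) and in 1.85% of all promoters; none of the 5 called genes was among the 11. The element of peroxisome proliferator-activated receptors was searched on both strands as AGGNCA repeated after any 1 base. It was found in 0 of 36 promoters of the peroxisome list and 0 of 16 of the fatty acid oxidation list. Of all promoters, 0.338% held it. At that share lists of this size hold few or no matches, so the search cannot tell whether these lists lack the element. Of 19 subunits of the V-ATPase, which acidifies lysosomes, 9 were lower in every mass (17.8% over all genes tested) and 0 higher (10.2%). The median was -0.34. At the 2.95% called over all genes tested, a list of this size holds few calls. Only Atp6v0a1 was called, at 10.99, 10.91 and 10.95 in the controls and 10.25, 10.36 and 10.41 in the masses, and it fell by 0.61 (SE 0.12, adjusted p = 0.0424). In autophagy (36 tested) Map1lc3a, which coats autophagosomes, measured 8.04, 8.23 and 8.02 in the controls and 7.01, 7.11 and 7.42 in the masses and fell by 0.92 (SE 0.15, adjusted p = 0.0326), and Wipi1, which acts early in their formation, measured 6.13, 6.10 and 6.18 in the controls and 7.08, 6.88 and 6.71 in the masses and rose by 0.75 (SE 0.14, adjusted p = 0.0395). Atp6v0a1 and Map1lc3a were not called after quantile normalization. With mass 412, 426 or 510 left out, the V-ATPase list had 0, 2 and 4 falls and autophagy 0, 1 and 1 rises and 0, 1 and 6 falls.

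ER genes leaned higher with little called. Among 39 chaperones and genes of the unfolded protein response, 19 had every mass above every control (10.2% over all genes tested) and 3 below (17.8%). The median was 0.28, and 1 was called. That gene, Hsp90b1, the ER form of HSP90, measured 11.07, 10.92 and 11.09 in the controls and 12.24, 11.71 and 11.84 in the masses and rose by 0.90 (SE 0.17, adjusted p = 0.0398). The list had 1, 4 and 4 rises and 0, 0 and 1 falls without mass 412, 426 and 510, and 6 rises in the 13-array fit. Hspa5, the main ER chaperone, measured 11.43, 11.61 and 11.52 in the controls and 12.30, 11.75 and 11.99 in the masses, a difference of 0.49 (SE 0.17, adjusted p = 0.149). Pdia6, a disulfide isomerase, measured 10.36, 10.23 and 10.22 in the controls and 11.68, 10.67 and 11.14 in the masses, a difference of 0.90 (SE 0.24, adjusted p = 0.0924). Calr, a chaperone of glycoproteins, measured 11.76, 11.77 and 11.67 in the controls and 12.36, 11.79 and 12.14 in the masses, a difference of 0.37 (SE 0.17, adjusted p = 0.267). These 3 were picked after their values and promoters were seen, and did not pass the test. Their promoters and that of Hsp90b1 are shown because they hold the ER stress element, CCAAT and CCACG with any 9 bases between them, in capitals, in the 250 bases before the start site (RefSeq, GRCm38.p6). Hsp90b1 lies at chr10:86705445-86705694 on the minus strand, Hspa5 at chr2:34771840-34772089 on the plus strand, Pdia6 at chr12:17266339-17266588 on the plus strand, and Calr at chr8:84846932-84847181 on the minus strand; both strands were searched, and a match on the other strand reads CGTGG, 9 bases and ATTGG.
Hsp90b1: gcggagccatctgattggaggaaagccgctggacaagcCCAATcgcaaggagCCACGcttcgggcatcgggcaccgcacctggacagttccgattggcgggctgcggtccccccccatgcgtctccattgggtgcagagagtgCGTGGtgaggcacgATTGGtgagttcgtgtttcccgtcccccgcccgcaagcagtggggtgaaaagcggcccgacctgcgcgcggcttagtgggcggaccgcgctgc
Hspa5: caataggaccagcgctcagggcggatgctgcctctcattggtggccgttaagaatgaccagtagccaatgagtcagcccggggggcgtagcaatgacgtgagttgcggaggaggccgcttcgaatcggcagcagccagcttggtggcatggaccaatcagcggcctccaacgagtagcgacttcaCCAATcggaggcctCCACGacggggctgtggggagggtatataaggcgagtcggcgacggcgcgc
Pdia6: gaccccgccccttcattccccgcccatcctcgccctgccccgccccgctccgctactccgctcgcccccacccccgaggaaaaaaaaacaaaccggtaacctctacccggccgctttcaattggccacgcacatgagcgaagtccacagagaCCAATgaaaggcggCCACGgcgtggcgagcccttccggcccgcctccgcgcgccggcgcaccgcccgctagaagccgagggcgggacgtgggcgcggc
Calr: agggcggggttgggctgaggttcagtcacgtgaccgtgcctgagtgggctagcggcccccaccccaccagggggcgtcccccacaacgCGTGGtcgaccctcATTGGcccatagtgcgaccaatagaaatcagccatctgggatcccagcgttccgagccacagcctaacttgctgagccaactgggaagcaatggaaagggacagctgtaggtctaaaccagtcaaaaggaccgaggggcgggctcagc
The element was found in 9 of 33 promoters of the list (27.3%) and in 37 of all 32851 (0.113%).

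The next 3 lists of the secretory path had 1 call each, all falls. Over all genes tested 2.18% fell, a share at which lists of this size hold few falls. Over all genes tested 10.2% were higher and 17.8% lower in every mass than in every control. ER entry and N-glycosylation (32 tested, median 0.29) had 15 genes higher and 4 lower in every mass; Sec61a2, a form of the channel protein that carries new proteins into the ER, measured 8.63, 8.61 and 8.59 in the controls and 8.04, 7.88 and 7.75 in the masses and fell by 0.72 (SE 0.13, adjusted p = 0.0373). In ER to Golgi transport (45 tested, median 0.08) Tmed5, a cargo receptor, fell by 0.81 (SE 0.13, adjusted p = 0.0309). Golgi glycosyltransferases (45 tested, median 0.32) had 19 genes higher and 2 lower in every mass. The called member, the mannosidase Man1a, fell by 0.78 (SE 0.15, adjusted p = 0.0443). It was not called in the 13-array fit (adjusted p = 0.636). In fits without mass 412, 426 and 510, ER entry had 0, 3 and 0 rises and 1, 2 and 1 falls, ER to Golgi transport 0, 1 and 1 rises and 1, 1 and 4 falls and the Golgi enzymes 0, 0 and 8 rises and 1, 1 and 1 falls. Ribosome biogenesis (43 tested) had no calls; its median was 0.61 in mass 412, -0.06 in mass 426 and 0.07 in mass 510 relative to the controls. Nop56, a core protein of ribosomal RNA processing, measured 9.36, 9.32 and 9.47 in the controls and 10.07, 9.30 and 9.60 in the masses. Aminoacyl-tRNA synthetases (21 tested) and heat shock proteins (20 tested) had no calls. Cars, which charges the tRNA of cysteine, measured 10.37, 10.40 and 10.43 in the controls and 9.95, 9.48 and 10.09 in the masses, and Hspa1a, an inducible HSP70, 9.04, 8.72 and 8.98 in the controls and 8.13, 8.69 and 8.20 in the masses. Without mass 412, 426 and 510, ribosome biogenesis had 0, 1 and 0 rises, the synthetases 0, 0 and 1 falls and the heat shock proteins 0, 1 and 1 falls. Among 40 proteasome genes Psmd5, an assembly factor, fell by 0.89 (SE 0.12, adjusted p = 0.0255).

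**Figure D4:**
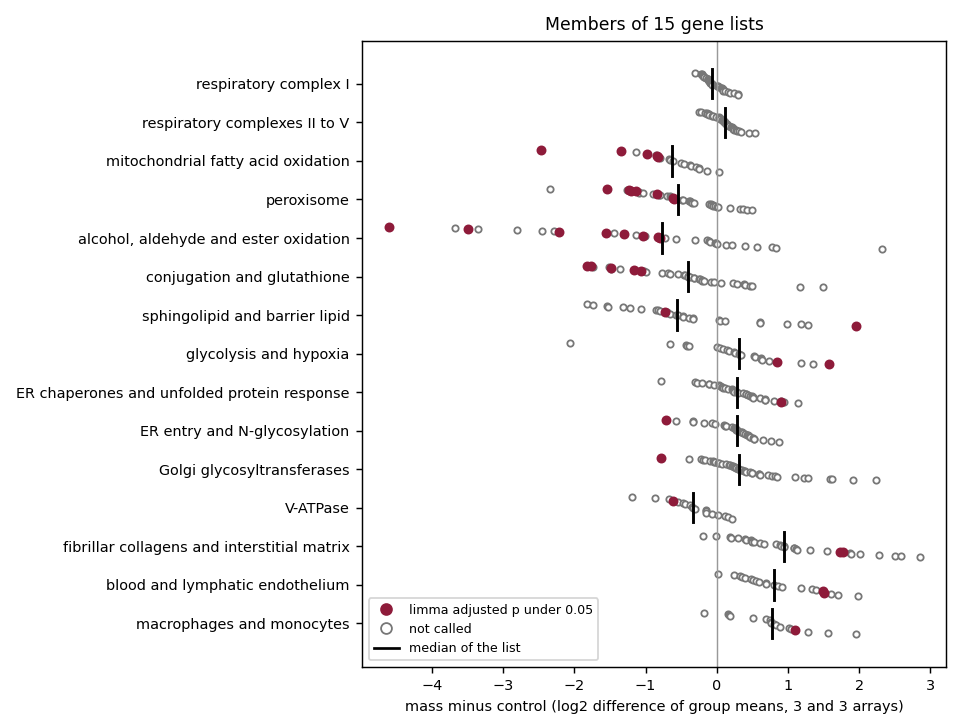
Difference between masses and controls (log2) for each tested member of 15 gene lists, with called genes as filled points and a bar at each list's median. Fatty acid oxidation, peroxisome and alcohol and aldehyde lists lie mostly below 0, collagens and endothelium mostly above, and respiratory chain lists lie around 0.

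Of 30 secreted proteases 4 rose and 0 fell. With mass 412, 426 or 510 left out, the list had 4, 9 and 4 rises and 0, 0 and 5 falls, and the 13-array fit called 4 rises and 3 falls. Tmprss11b, a transmembrane serine protease, measured 3.71, 4.22 and 5.50 in the controls and 11.70, 8.53 and 10.13 in the masses and rose by 5.65 (SE 0.79, adjusted p = 0.0267). Tmprss11g, of the same family, measured 6.45, 6.77 and 7.46 in the controls and 12.14, 9.65 and 11.02 in the masses and rose by 4.04 (SE 0.59, adjusted p = 0.0282). Tmprss11d, a further member, measured 7.84, 7.72 and 7.88 in the controls and 11.94, 9.66 and 11.29 in the masses and rose by 3.15 (SE 0.52, adjusted p = 0.0326). Klk14, a kallikrein that helps shed surface cells in skin, measured 8.55, 8.78 and 8.94 in the controls and 12.16, 10.40 and 11.22 in the masses and rose by 2.51 (SE 0.40, adjusted p = 0.0311). Mass 426 was the lowest mass for all 4. Among protease inhibitors (28 tested) Serpina3n, a secreted serpin of inflammation, measured 6.23, 5.69 and 5.52 in the controls and 9.68, 8.70 and 7.51 in the masses and rose by 2.81 (SE 0.50, adjusted p = 0.0387). Serpinb2, an inhibitor of plasminogen activators, measured 11.36, 11.80 and 11.84 in the controls and 10.39, 9.97 and 10.52 in the masses and fell by 1.38 (SE 0.20, adjusted p = 0.0282), and Serpinb8 fell by 1.005 (SE 0.17, adjusted p = 0.0353). Serpina3n was not called in the 13-array fit (adjusted p = 0.0665), and the inhibitor list had 1, 4 and 3 rises and 2, 4 and 5 falls without mass 412, 426 and 510.

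Lcn2, a lipocalin that withholds iron carriers from bacteria, measured 5.04, 5.44 and 5.29 in the controls and 7.80, 7.46 and 9.39 in the masses and rose by 2.96 (SE 0.46, adjusted p = 0.0302). It was highest in mass 510, and all masses lay above all controls. In the list of secretoglobins, lipocalins and salivary-type proteins (14 tested) 1 rose and 1 fell, and the median was 0.86. The fall was of Scgb1a1, a secretoglobin of airway and gland epithelium, which measured 10.74, 11.14 and 10.65 in the controls and 4.95, 7.74 and 8.19 in the masses and fell by 3.88 (SE 0.77, adjusted p = 0.0466). In fits without mass 412, 426 and 510, the list had 1, 2 and 4 rises and 1, 1 and 1 falls. Mucins and mucous secretion (20 tested) had a median of 0.52, and of 0.15 without mass 426. Muc15, a membrane mucin, measured 9.55, 9.60 and 9.58 in the controls and 7.70, 8.36 and 8.21 in the masses and fell by 1.48 (SE 0.18, adjusted p = 0.0235). Muc5ac, a gel-forming mucin of the glandular stomach, measured 4.95, 5.28 and 5.28 in the controls and 5.11, 12.09 and 5.76 in the masses, high in mass 426 alone. No gene of regulated exocytosis (30 tested) was called; Rab3a, a GTPase of secretory vesicles, measured 5.82, 5.45 and 5.49 in the controls and 5.36, 5.37 and 5.57 in the masses. Without mass 412, 426 and 510, the mucin list had 0, 0 and 2 rises and 1, 1 and 1 falls and exocytosis 0, 1 and 2 rises and 0, 0 and 1 falls.

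Growth factors and their binding proteins had 3 rises and 3 falls among 41. Nrg4 and Ereg, ligands of the EGF receptor family, fell. Nrg4 measured 5.76, 5.56 and 5.82 in the controls and 4.22, 4.49 and 4.70 in the masses and fell by 1.24 (SE 0.16, adjusted p = 0.0238); it passed the level filter through the controls only. Ereg measured 10.02, 10.35 and 9.89 in the controls and 8.03, 8.06 and 8.78 in the masses and fell by 1.80 (SE 0.23, adjusted p = 0.0238). The binding proteins of insulin-like growth factors went opposite ways: Igfbp2 measured 10.20, 10.07 and 10.05 in the controls and 6.64, 7.97 and 8.01 in the masses and fell by 2.56 (SE 0.35, adjusted p = 0.0255), and Igfbp3 measured 6.22, 6.21 and 6.36 in the controls and 10.45, 8.33 and 8.51 in the masses and rose by 2.83 (SE 0.52, adjusted p = 0.0398). Igfbp2 was low in all masses and Igfbp3 high in all. Ccn2, a matricellular growth factor, and Inhbb, a subunit of activin B, had differences of 0.97 and 0.69. The list had 1, 3 and 11 rises and 3, 3 and 4 falls without mass 412, 426 and 510. Of 33 cytokines and chemokines only Csf1, which keeps macrophages alive, was called; it measured 6.03, 5.88 and 5.87 in the controls and 6.76, 6.60 and 6.79 in the masses and rose by 0.79 (SE 0.12, adjusted p = 0.0305), and was not called in the 13-array fit (adjusted p = 0.110). The cytokine list had 1, 3 and 2 rises and 1, 1 and 4 falls without each mass. In ion and water transport (38 tested, median 0.05) Ano9, of the anoctamin family, measured 10.52, 10.29 and 10.36 in the controls and 8.63, 9.21 and 9.11 in the masses and fell by 1.40 (SE 0.18, adjusted p = 0.0238), and Car12, a membrane carbonic anhydrase, fell by 0.79 (SE 0.12, adjusted p = 0.0302). The ion transport list had 0, 1 and 5 rises and 2, 3 and 3 falls without mass 412, 426 and 510.

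Stromal genes leaned higher, and their calls rested on few arrays. Of 33 collagen and interstitial matrix genes 16 were higher in every mass than in every control (10.2% over all genes tested) and 0 lower (17.8%). The median was 0.94. Its value was 1.02, 1.496 and 0.48 in masses 412, 426 and 510. Only 2 were called. Col3a1, a fibrillar collagen, measured 7.27, 6.60 and 6.43 in the controls and 8.93, 8.78 and 7.79 in the masses and rose by 1.74 (SE 0.34, adjusted p = 0.0466). Thbs1, a matricellular protein, measured 6.88, 7.22 and 7.15 in the controls and 9.62, 8.86 and 8.10 in the masses and rose by 1.78 (SE 0.35, adjusted p = 0.0466). With mass 412, 426 or 510 left out, the list had 0, 1 and 17 rises, where rises over all genes made up 0.532%, 1.64% and 3.58%. Leaving out the mildest mass thus raised the list's count, and leaving out either other mass lowered it. Col3a1 was not called without mass 412 (adjusted p = 0.0940), without mass 426 (adjusted p = 0.0651) or in the 13-array fit (adjusted p = 0.423). Thbs1 was not called without mass 412 (adjusted p = 0.0521) or without mass 426 (adjusted p = 0.0587). The sums of the fibroblast, smooth muscle and endothelial markers given above were highest in masses 412 and 426. Col3a1, Col1a1 and Col1a2 are among the fibroblast markers, so those sums partly repeat collagen values. The part of these cell types in the rises was not tested.

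Basement membrane genes had 2 rises and 1 fall among 30 (median 0.24). Col4a1, the main network collagen, measured 6.59, 6.81 and 6.79 in the controls and 7.98, 7.96 and 7.45 in the masses and rose by 1.06 (SE 0.18, adjusted p = 0.0339). Col18a1, a collagen of vessel and epithelial basement membranes, measured 6.97, 6.88 and 6.76 in the controls and 7.87, 7.66 and 7.50 in the masses and rose by 0.80 (SE 0.14, adjusted p = 0.0381). Smoc2, a secreted calcium-binding protein, measured 8.84, 8.71 and 9.09 in the controls and 7.58, 7.37 and 7.64 in the masses and fell by 1.35 (SE 0.15, adjusted p = 0.0176). In matrix processing (25 tested) Adamts1, a protease of proteoglycans, rose by 1.47 (SE 0.24, adjusted p = 0.0328), and was not called in the 13-array fit (adjusted p = 0.0841). Of 20 matrix metalloproteinase and plasminogen genes 12 were higher in every mass (10.2% over all genes tested) and 1 lower (17.8%), with a median of 0.58. Plaur, the receptor of urokinase, measured 5.74, 5.67 and 5.51 in the controls and 7.01, 7.23 and 6.43 in the masses and rose by 1.248 (SE 0.21, adjusted p = 0.0363); the 13-array fit called 4 rises. In fits without mass 412, 426 and 510, basement membrane genes had 0, 3 and 7 rises and 1, 1 and 1 falls, matrix processing 0, 1 and 6 rises and the metalloproteinase list 0, 2 and 7 rises.

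Endothelial genes had a median of 0.81, and 18 of 23 were higher in every mass, where 10.2% of all genes tested were. Plvap, which spans the pores of capillaries, measured 6.89, 6.29 and 5.97 in the controls and 8.19, 7.97 and 7.48 in the masses and rose by 1.497 (SE 0.28, adjusted p = 0.0405). Ptprb, an endothelial phosphatase, measured 6.43, 5.68 and 5.67 in the controls and 7.79, 7.54 and 6.95 in the masses and rose by 1.499 (SE 0.28, adjusted p = 0.0426). The list had 0, 0 and 14 rises without mass 412, 426 and 510, where rises over all genes made up 0.532%, 1.64% and 3.58%. Plvap and Ptprb were not called without mass 412 (adjusted p = 0.082 and 0.084) or without mass 426 (adjusted p = 0.0534 and 0.0567). Ptprb was not called in the 13-array fit either (adjusted p = 0.155). Myofibroblast and pericyte genes (16 tested) had no calls and a median of 1.67, or 0.60 without mass 426. Acta2, smooth muscle actin, measured 10.25, 6.73 and 6.59 in the controls and 10.64, 12.60 and 8.68 in the masses; control 214 overlapped the masses. Of 18 fibroblast genes only Meox1, a transcription factor, was called, with a difference of 0.73 (adjusted p = 0.112 in the 13-array fit). Nerve (14 tested) and skeletal muscle (16 tested) genes had no calls. Mbp, a myelin protein, measured 6.42, 6.54 and 6.31 in the controls and 7.002, 6.72 and 6.66 in the masses, and Acta1, skeletal muscle actin, 6.83, 7.11 and 7.01 in the controls and 7.11, 7.26 and 7.05 in the masses. Without mass 412, 426 and 510, fibroblast genes had 0, 1 and 4 rises, myofibroblast genes 0, 0 and 3 rises and nerve genes 0, 0 and 1 rises.

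Immune cell genes had 5 calls. Csf1r, the receptor of Csf1 on macrophages, measured 6.73, 6.39 and 7.01 in the controls and 8.01, 7.72 and 7.69 in the masses and rose by 1.09 (SE 0.19, adjusted p = 0.0363). In the macrophage and monocyte list (median 0.78) 15 of 18 genes were higher in every mass than in every control, against 10.2% of all genes tested. Cd74 and H2-Aa, which load and form MHC class II, rose. Cd74 measured 8.40, 7.81 and 8.63 in the controls and 9.78, 9.48 and 9.27 in the masses and rose by 1.23 (SE 0.24, adjusted p = 0.0447). H2-Aa measured 8.33, 7.85 and 8.29 in the controls and 9.38, 9.36 and 8.82 in the masses and rose by 1.03 (SE 0.21, adjusted p = 0.0497). None of these 3, Csf1r, Cd74 and H2-Aa, was called in the 13-array fit (adjusted p = 0.234, 0.361 and 0.412) or without mass 412 (adjusted p = 0.0659, 0.0879 and 0.0948). Neither Cd74 nor H2-Aa was called without mass 426 (adjusted p = 0.0538 and 0.0673). Il1r2, a decoy receptor of interleukin 1, measured 9.47, 9.61 and 9.45 in the controls and 7.61, 7.92 and 7.93 in the masses and fell by 1.69 (SE 0.14, adjusted p = 0.00902). The remaining call was the alarmin S100a8, which measured 5.05, 5.10 and 5.63 in the controls and 11.43, 8.05 and 12.59 in the masses. S100a8 rose by 5.43 (SE 1.03, adjusted p = 0.0424) and was not called without mass 412 (adjusted p = 0.0921). The 5 macrophage markers summed to 605, 724 and 719 in the controls and to 1305, 750 and 897 in the masses, highest in mass 412. The 4 neutrophil markers overlapped between groups at 198 to 373, with Ly6g not above the filter. T and NK cell (12 tested) and B cell (7 tested) genes had no calls; Ncr1, Cd79a and Ms4a1 were not above the filter. Cd3e, a chain of the T cell receptor complex, measured 5.95, 6.30 and 6.45 in the controls and 6.37, 6.30 and 6.66 in the masses, and Cd79b, of the B cell receptor, 5.37, 5.48 and 5.58 in the controls and 5.61, 5.87 and 6.10 in the masses. Mast cell and eosinophil genes (9 tested) had none either, although Cpa3, a mast cell protease, measured 5.23, 4.08 and 4.06 in the controls and 6.10, 7.66 and 4.34 in the masses. With mass 412, 426 or 510 left out, macrophage genes had 1, 2 and 6 rises, neutrophil genes 0, 2 and 1 rises and 1, 1 and 1 falls, dendritic cell genes 0, 0 and 4 rises and mast cell genes 0, 1 and 3 rises.

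Among epithelial lists, squamous differentiation had 5 falls and 1 rise of 46 tested (median -0.56). Evpl, which lines the cell envelope, measured 11.10, 11.06 and 11.08 in the controls and 9.86, 10.08 and 10.34 in the masses and fell by 0.98 (SE 0.15, adjusted p = 0.0298). Sbsn, a secreted protein of upper layers, measured 11.88, 11.62 and 11.47 in the controls and 10.45, 10.71 and 10.82 in the masses and fell by 0.999 (SE 0.16, adjusted p = 0.0321). Scel, another envelope precursor, and Lce3f had differences of -0.90 and -1.20. The list had 1, 5 and 1 rises and 2, 4 and 17 falls without mass 412, 426 and 510. Basal cell genes (19 tested, median -0.18) had 1 call, Igfbp2, and 0, 2 and 1 rises and 1, 1 and 1 falls without each mass. Genes of mitosis and DNA replication had none of 42 called, although 38 had differences above 0, and 2 rises without mass 426. Their median was 1.003 in mass 412, -0.16 in mass 426 and 0.33 in mass 510, so mass 426 did not share it. Mki67, a marker of dividing cells, measured 7.88, 7.99 and 8.43 in the controls and 9.53, 8.18 and 8.46 in the masses.

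The next rises are the largest outside the genes above and outside 16 that were named for their size before, such as Krt16, Krt6a, Defb4 and Chil4. Larger rises are among those 16. Predicted and RIKEN genes were left out of this ranking. Anxa8, a membrane-binding annexin, measured 5.76, 8.30 and 6.02 in the controls and 12.10, 9.82 and 11.14 in the masses and rose by 4.33 (SE 0.78, adjusted p = 0.0393), a 20.1-fold change. Cldn17, a tight junction claudin, measured 5.70, 5.40 and 6.43 in the controls and 11.42, 8.15 and 10.44 in the masses and rose by 4.16 (SE 0.76, adjusted p = 0.0398). Dsc2, a desmosomal cadherin, measured 8.28, 8.53 and 8.83 in the controls and 12.54, 11.41 and 11.90 in the masses and rose by 3.40 (SE 0.29, adjusted p = 0.00902). All masses lay above all controls. Cwh43 measured 5.25, 5.95 and 6.04 in the controls and 9.69, 9.64 and 8.40 in the masses and rose by 3.497 (SE 0.38, adjusted p = 0.0159). Ceacam1, an adhesion protein of the immunoglobulin family, measured 5.16, 5.17 and 5.96 in the controls and 11.01, 9.26 and 8.13 in the masses and rose by 4.04 (SE 0.66, adjusted p = 0.0326). Anxa3, another annexin, measured 5.40, 5.54 and 5.67 in the controls and 9.77, 9.73 and 7.27 in the masses and rose by 3.39 (SE 0.63, adjusted p = 0.0401). Mass 412 was the highest array for these 3. Krt17, a keratin of injured and growing epithelium, measured 7.65, 7.78 and 8.30 in the controls and 12.66, 10.06 and 12.33 in the masses. It rose by 3.77. Without mass 412, Anxa8, Cldn17, Krt17 and Anxa3 were not called (adjusted p = 0.078, 0.064, 0.063 and 0.082). Anxa8 and Cldn17 were not called without mass 510 either (adjusted p = 0.053 and 0.056). Control esophagus had means of 9.71 ± 0.59 for Anxa8, 11.05 ± 0.15 for Cldn17 and 6.88 ± 0.27 for Krt17 (SD, n = 3). The masses' means were 11.02 ± 1.14, 10.004 ± 1.68 and 11.68 ± 1.42 (SD, n = 3), and the levels of the tissues were not tested against each other.

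The largest falls under the same rule included enzymes and barrier proteins. Far2, which reduces fatty acids to the alcohols of waxes, measured 8.69, 9.35 and 9.03 in the controls and 5.09, 6.43 and 6.98 in the masses and fell by 2.86 (SE 0.45, adjusted p = 0.0305), a further lipid enzyme beside those above. Aadacl4, of a family of lipid esterases, measured 7.12, 8.57 and 7.52 in the controls and 4.89, 4.93 and 5.72 in the masses and fell by 2.55 (SE 0.39, adjusted p = 0.0302). Its relative AAdacl4fm3 measured 5.94, 7.23 and 7.06 in the controls and 3.97, 4.16 and 4.43 in the masses and fell by 2.56 (SE 0.33, adjusted p = 0.0238); it passed the level filter through the controls only, and copies of this family may share probes. Adh6b, next of kin to Adh6a, measured 7.03, 7.62 and 7.72 in the controls and 4.62, 5.07 and 5.10 in the masses and fell by 2.52 (SE 0.23, adjusted p = 0.00996). The secreted or signalling genes among them were Tafa4 (-2.76), Wfdc21 (-2.60), the semaphorin Sema3e (-2.48) and Dab1 (-2.57), the adaptor of the reelin pathway. Krt76, a keratin of upper squamous layers, measured 7.29, 8.80 and 7.59 in the controls and 5.05, 5.69 and 5.93 in the masses. It fell by 2.33 (SE 0.41, adjusted p = 0.0370). Without mass 412 neither Krt76 nor Aadacl4 was called (adjusted p = 0.072 and 0.063). Lce1l, a late envelope gene, had a difference of -2.34.

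The masses differed among themselves. Relative to the control mean, 784 genes were more than 1 log2 unit higher and 679 lower in mass 412, 786 and 450 in mass 426, and 179 and 300 in mass 510. Mass 426 had 94 genes at least 2 log2 units above every other array, mass 412 had 29 and mass 510 had 0. The genes with the largest SD over the masses were mostly of glandular or mucous epithelium. Gkn1, a secreted protein of gastric surface cells, measured 5.64, 5.61 and 5.90 in the controls and 5.65, 13.08 and 5.99 in the masses. Ctse, a gastric aspartic protease, measured 4.79, 5.13 and 5.02 in the controls and 4.71, 11.496 and 4.97 in the masses. Tff1, a trefoil peptide of gastric mucus, measured 6.81, 6.93 and 6.94 in the controls and 6.79, 13.39 and 6.94 in the masses. Bpifb1, a secreted protein of airway and mouth, measured 5.04, 5.13 and 4.84 in the controls and 5.23, 12.54 and 5.25 in the masses. Mucl3, a mucin-like protein, measured 4.83, 4.83 and 5.17 in the controls and 4.95, 12.13 and 5.21 in the masses. All 5 were high in mass 426 only. Ltf, an iron-binding protein of secretions, measured 5.16, 5.44 and 7.45 in the controls and 12.23, 11.15 and 5.33 in the masses, high in masses 412 and 426. The RIKEN gene 9130409I23Rik measured 12.73, 12.87 and 12.89 in the controls and 5.12, 10.80 and 11.77 in the masses, lowest in mass 412. Crnn, a gene of late squamous layers picked after its values were seen, measured 5.40, 5.71 and 6.21 in the controls and 10.64, 6.46 and 6.07 in the masses, high in mass 412 only. Atp4a, a subunit of the gastric acid pump, measured 6.02, 6.07 and 6.27 in the controls and 6.15, 11.51 and 6.32 in the masses. In the glandular stomach list (18 tested) the median was 1.71, and 0.12 without mass 426.

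For a few genes the change in the forestomach differed from that in flox/flox esophagus. The test of the difference, in the 13-array fit, called 22 genes (0.139%), 13 with a higher change in the forestomach (0.0819%) and 9 with a lower one (0.0567%). With the animal as a random replicate block it called 145, and single masses moved the number to 139 (without mass 426) and 373 (without mass 510), and without any 1 of the 3 forestomach controls it was 10 to 14. It was 11, 14 and 11 without control esophagus 216, control esophagus 214 or 1 of the flox/flox esophagus arrays. The controls of both tissues came from the same 3 animals. Sptlc3 averaged 5.89 ± 0.16 in control forestomach and 7.84 ± 0.07 in the masses, but 10.69 ± 0.02 in control esophagus (all SD, n = 3) and 9.93 ± 0.46 in flox/flox esophagus (SD, n = 4). Its changes differed by 2.71 (SE 0.29, limma adjusted p = 0.00284). Dsc2 averaged 8.54 ± 0.27 in control forestomach and 11.95 ± 0.57 in the masses, against 11.99 ± 0.14 and 12.45 ± 0.23 in control and flox/flox esophagus. The difference of the changes was 2.95 (SE 0.34, limma adjusted p = 0.00392). The group means of both genes were lowest in control forestomach, and neither gene was called in the esophagus. Elovl7 had a difference of -0.09 in the esophagus, and the changes differed by 1.32 (SE 0.14, limma adjusted p = 0.00284).

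Cyp4b1 averaged 7.80 ± 0.08 in control and 7.92 ± 0.19 in flox/flox esophagus, and its changes differed by -1.42 (SE 0.17, limma adjusted p = 0.00555). Ctsh averaged 8.37 ± 0.20 and 8.37 ± 0.26 there, with a difference of 2.07 (SE 0.35, limma adjusted p = 0.0498). The calls for Ctsh and Cwh43 were lost when single control arrays were left out. Adh6b and Dab1 were low in both esophagus groups, at 5.30 ± 0.13 and 5.31 ± 0.11 in the controls (SD, n = 3), near the filter level of 5. Of the called list members, only Sptlc3, Elovl7, Cyp4b1, Ctsh and Dsc2 passed the test of the difference. Decr1 had differences of -2.48 in the forestomach and -0.65 in the esophagus, and Pex3 of -1.20 and -0.30; for neither did the changes differ past the threshold (adjusted p = 0.164 and 0.0771).

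**Figure D5:**
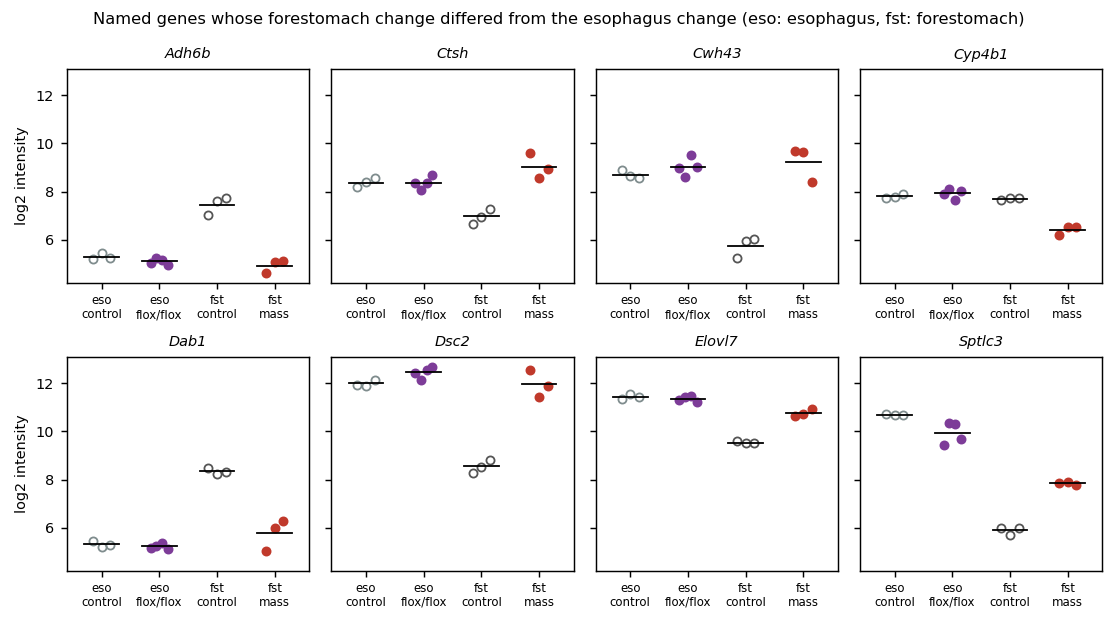
Log2 intensity of 8 genes whose change in the masses differed from that in flox/flox esophagus, in control and flox/flox esophagus (3 and 4 arrays), control forestomach and masses (3 arrays each), with a bar at each group mean. Sptlc3, Dsc2 and Elovl7 are lowest in control forestomach, and Cyp4b1 is lowest in the masses.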

How the data were processed

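Gene expression was measured on 13 mouse Affymetrix gene arrays, each of RNA from 1 epithelium sample labelled with biotin. The authors deposited linear intensity values made with GCRMA (version not stated), per the submitters' processing notes. GCRMA corrects a probe's background by its sequence and summarises probes into probe sets. Values were floored at 1, which changed none, and put on the log2 scale. Of 34729 probe sets, 21633 had 1 gene in the platform annotation, which can be old, 1306 had several and 11790 none. Each of 19934 genes was represented by its probe set with the highest mean. Genes with a log2 intensity above 5 on at least 3 of the 6 forestomach arrays were fitted by limma 3.58.1 under R 4.3.3, using lmFit and eBayes with 4 residual degrees of freedom. Benjamini-Hochberg adjustment covered all genes tested, and calls were made under an adjusted p of 0.05. The procedure was tested on simulated data. The difference from the esophagus is a contrast in 1 fit of all 13 arrays.

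Each array of a group is from another animal, and the 3 control animals gave both tissues. Deviations of their forestomach and esophagus arrays from the group means correlated at 0.401, 0.399 and 0.315 for the same animal and at -0.425 to 0.129 between animals, so the animal was used as a replicate block in an alternative. With 3 arrays a group, the number of arrays limits the precision. Members and gene lists were chosen with earlier results of these data known. The text names up to 3 called members of each of 60 lists by smallest adjusted p (where none is called, the first listed member that was tested), the 12 largest rises and falls outside 16 genes named for their size before, Ctnnd1, the 8 genes with the largest SD over the masses, and, for the difference, the 8 list members with the smallest adjusted p, of which 5 exist. Predicted and RIKEN genes were left out of the largest rises and falls. Further called list members, and genes given for a marker or a promoter, were chosen after their values were seen. Promoters are the 250 bases before the start site in RefSeq, GRCm38.p6.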

Additional observations from a re-analysis of the deposited data

Results flagged for a closer look

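For 8 genes named in the report, the forestomach change (masses minus controls) differed from the esophagus change (flox/flox minus control) in limma's test of the difference. Among rises in the masses, the changes differed by 3.15 for Cwh43, 2.95 for Dsc2, 2.71 for Sptlc3, 2.07 for Ctsh and 1.32 for Elovl7. Among falls, the changes differed by -2.49 for Dab1, -2.33 for Adh6b and -1.42 for Cyp4b1. Dsc2 averaged 8.54 in control forestomach, 11.95 in the masses, 11.99 in control esophagus and 12.45 in flox/flox esophagus, in log2 intensity. Ctsh was not called with array weights (adjusted p = 0.0555) or without the level filter (adjusted p = 0.0550).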

How the results depend on the processing

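All 458 calls kept their direction under every alternative in which the gene was measured. For fits that left out or weighted arrays this was fixed in advance, since the groups of a called gene did not overlap. The 13-array fit takes the same group means, so the kept direction is no measure of stability there either. Against 458 genes called, 119 higher and 339 lower, the fit of all 13 arrays gave 1700 (366 and 1334), and the animal as a random replicate block 1622 (346 and 1276). Array weights gave 1038 (337 and 701), 1 variance per group 698 (191 higher), sex as a covariate 103 (42 and 61), a filter at a log2 intensity of 7 gave 894 (180 and 714), and quantile normalization 316 calls with 198 lower. Leaving out 1 array gave 1 to 1447 calls, 0 to 548 higher and 1 to 899 lower. For the difference from the esophagus, 22 genes became 145 with the block, and 10 to 373 without 1 array. Array weights gave 60 for it, 1 variance per group 37, the filter at 7 gave 101 and quantile normalization 49. Of 96 named calls the block left 81, the 13-array fit 83, sex as a covariate 28 and quantile normalization 86; leaving out mass 412, 426 or 510 left 64, 89 and 94, and leaving out a control left 1 to 3 of 94. Among named genes that were not called, 3 changed sign: Cs (0.0061) and Pgls (-0.0432) without mass 510, and Tff1 (-0.0281) without mass 426. Without 1 array, Cs lay between -0.122 and 0.0061, Pgls between -0.0432 and 0.124 and Tff1 between -0.0281 and 3.27. List medians moved beyond the spread of the masses in 35 of 1078 values under an alternative. The cause of these shifts was not tested.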
